A study of Rattus norvegicus with 23 samples.

Results

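The livers of 11 rat offspring whose dams had inhaled ozone were compared between the sexes: 6 ozone daughters (rats 51, 52, 55, 56, 57 and 59) and 5 ozone sons (rats 76, 77, 79, 80 and 83), of 23 livers in the series. Membership came from the sex and maternal treatment labels. The offspring were about 48 days old, and their dams had been exposed to 0.8 ppm ozone on gestation days 5 and 6. The reference groups were 6 air daughters and 6 air sons, offspring of dams kept in filtered air. What all 4 groups share is liver as the tissue and poly(A)-selected RNA. A further inhalation protocol is described for an unspecified subset of rats. All library names carry an ozone level of 0 ppm, so it was taken that the offspring themselves breathed air. The sources used here give neither strain nor litter. Littermates cannot be recognised. P-values would be too small if a group held littermates, and any pairing of brothers with sisters went unused.

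The rat liver is among the most sexually dimorphic organs outside the reproductive tract. Growth hormone reaches it in separated pulses in adult males and more continuously in females, and this pattern sets the level of many cytochrome P450 enzymes, sulfotransferases, carrier proteins and secreted proteins through the factor STAT5. The dimorphism appears around puberty. Comparing the sexes among ozone offspring asks which sex differences were present after the maternal exposure. The table identifies genes only by Ensembl identifier. None of its 18056 identifiers could be paired with a symbol (0 matches in a RefSeq table of 47357 genes). Genes are therefore described by their behaviour, and 4 identifiers are given by name. Liver marker genes could not be read, and genes of the sex chromosomes could not be set apart.

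Total counts of the 11 ozone libraries lay between 10184864 and 14098393. Library names had 2 styles, and the style was treated as a batch, although no label says what it stands for. Style 1 held 1 ozone daughter (rat 52) and 4 ozone sons. Style 2 held 5 ozone daughters and 1 ozone son (rat 77). Style and sex were therefore nearly aligned, and the style was a term of the model.

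Ozone daughters and sons differed in 776 of 12792 tested genes, 6.07% (edgeR, quasi-likelihood, adjusted p under 0.05 after Benjamini-Hochberg; 6 against 5 livers). The daughters had the higher level in 373 (2.92% of tested genes) and the sons in 403 (3.15%). In bulk liver, fewer cells of a type and less RNA per cell cannot be told apart. The median log2 difference, daughters minus sons, was 1.02 among daughter-higher genes (quartiles 0.67 to 1.71) and −1.06 among son-higher genes (quartiles −2.27 to −0.72). The median standard error was 0.22 and 0.25 in these lists. The lists were of similar size, but the most extreme differences were mostly on the male side. A difference of over 16-fold was found in 54 son-higher and 19 daughter-higher genes. Reads shared between genes, such as gene copies, can give fractional counts and could enter several of these genes. In air offspring the class over 16-fold held 52 son-higher and 26 daughter-higher genes, of which 15 and 13 had whole counts in every library. The part of shared reads in the excess on the male side was not tested. At the lower end, 58 daughter-higher and 59 son-higher genes differed by less than 1.5-fold. A difference of at least 2-fold was called in 415 genes (3.24%), 196 higher in daughters and 219 higher in sons.

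The air offspring give the scale of this comparison: there 6183 genes (48.3%) differed by sex under the same test, 3042 higher in daughters (23.8%) and 3141 higher in sons (24.6%). Over all tested genes the median size of the log2 difference was 0.19 in ozone and 0.43 in air offspring. The model estimates 1 spread per gene over all groups, while the median SD of log2 CPM within groups was 0.326 in ozone daughters and 0.283 in ozone sons, against 0.273 and 0.263 in air daughters and sons. With the ozone groups fitted without the air groups, 340 genes were called between ozone daughters and sons. Of genes with a difference of at least 2-fold, 415 of 635 were called in ozone and 1703 of 1783 in air offspring.

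Sex differences were found at all levels of expression, with the largest share among abundant transcripts. CPM are counts scaled to the effective size of the library. Of 1187 genes with a mean of 100 CPM or more in ozone livers, 154 (13%) were called, 81 higher in daughters and 73 in sons. The share was 6.18% of 5569 genes at 10 to 100 CPM, 4.61% of 5233 genes at 1 to 10 CPM and 4.61% of 803 genes under 1 CPM. The median standard error was 0.16 at 100 CPM or more and 0.45 under 1 CPM, so a small difference was not detectable in rare transcripts. The 100 most abundant genes took 50.9% of the counts in ozone daughters and 49.8% in ozone sons. Of these genes 20 differed by sex, 11 higher in daughters and 9 in sons.

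In 540 genes (4.22%) the ozone daughters and sons did not overlap on log2 CPM. All daughters lay above all sons in 244 and all sons above all daughters in 296. Of the 776 called genes, 420 showed no overlap and 356 did. Without ozone son 4 (rat 80) the number of genes without overlap was 874. Fewer animals make this condition easier to meet, and leaving out any 1 ozone animal gave 592 to 874. Reads divided between genes, such as gene copies, can give fractional counts, which make a level uncertain. Where the fractional counts arose was not tested. Of the called genes 467 (60.2%) had whole counts in every library, against 64.5% of tested genes.

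A few genes were seen in 1 sex alone, defined as at least 1 CPM in every liver of that sex and at most 3 counts summed over the other. In ozone offspring this held for 1 gene in daughters and 5 in sons. All 6 met the same definition in air offspring, where 4 and 7 genes did so. The 11 genes of the air offspring were nearly all called in ozone offspring, 3 of 4 on the female side and 7 of 7 on the male side. Of all tested genes 6.07% were called. The 11 genes were chosen for extreme levels, which are easier to call, and genes of the sex chromosomes among them could not be set apart.

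The named identifiers are the 2 in each direction with the largest difference among called genes with whole counts, no overlap and at least 10 CPM in the higher sex. This left 88 daughter-higher and 78 son-higher genes to choose from. ENSRNOG00000010725 was at 0.781, 7.63, 6.48, 40.2, 34.8 and 4.36 CPM in ozone daughters 1 to 6. In ozone sons it was at 0.089, 0, 0, 0.175 and 0 CPM, with 3 counts over the 5 sons. Rats 56 and 57 were the highest daughters and rat 51 the lowest, still above every son. Its log2 difference was 7.82 with a standard error of 1.24 (edgeR, adjusted p = 0.000188). The ratio of pooled counts was 294 with a 95% exact interval of 100.4 to 1428, which covers counting error only. The log2 difference was 6.62 within style 1, where rat 52 is the only ozone daughter, and 10.69 within style 2, where rat 77 is the only ozone son; in style 2 the call was lost (edgeR, adjusted p = 0.273).

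ENSRNOG00000037549 was at 8.68, 7.99, 306, 68.6, 359 and 26.3 CPM in ozone daughters 1 to 6 and at 3.92, 0.299, 0.438, 0.439 and 0.274 CPM in ozone sons 1 to 5. The daughters spanned more than an order of magnitude, with rats 55 and 57 highest. Ozone son 1 (rat 76) stood above the other sons and below the lowest daughter, rat 52. The log2 difference was 7.49 with a standard error of 1.93 (edgeR, adjusted p = 0.0183). The call was lost without ozone son 2 (rat 77; 6.78, edgeR adjusted p = 0.17), with the ozone groups fitted alone (5.07, adjusted p = 0.264), with limma voom (6.29, adjusted p = 0.163), and within style 1 (2.65, adjusted p = 0.657) and style 2 (8.95, adjusted p = 0.174). Over all alternatives the adjusted p lay between 6.75e-08 and 0.657. The air daughters also varied widely, from 6.59 to 539.6 CPM.

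On the male side, ENSRNOG00000057231 was at 116, 112, 97.5, 60.1 and 104 CPM in ozone sons 1 to 5. In ozone daughters 1 to 6 it was at 0.0868, 0, 0, 0.313, 0 and 0.0739 CPM, with 5 counts in all. It was the most uniform of the 4 among its higher sex. Its log2 difference was −10.31 with a standard error of 0.40 (edgeR, adjusted p = 8.15e-15). Air sons had 65.0 ± 12.5 CPM and air daughters 0.0781 ± 0.124 CPM (SD, n = 6 and 6), against 97.8 ± 22.3 CPM in ozone sons and 0.0790 ± 0.121 CPM in ozone daughters (SD, n = 5 and 6).

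ENSRNOG00000018086 was at 156, 276, 64.8, 117 and 214 CPM in ozone sons 1 to 5. Ozone daughters 1 to 6 had 0.607, 0.545, 0, 2.30, 0.636 and 0.0739 CPM. Daughter 4 (rat 56) was the highest daughter and son 3 (rat 79) the lowest son. The log2 difference was −8.46 with a standard error of 0.65 (edgeR, adjusted p = 3.17e-09). For none of the 4 identifiers was a change of the sex difference between ozone and air offspring called by the interaction test (edgeR, adjusted p = 0.863, 0.853, 0.473 and 0.935 in the order given). Back-calculated from the test statistic, the log2 standard errors of that change were 3.29, 3.05, 1 and 0.96. They are rough, since 3.29 and 1 are larger than the standard errors of the 2 sex differences allow. For the daughter-higher identifiers those were 1.24 and 1.93 in ozone and 1.15 and 1.51 in air offspring. A change of several log2 units could go undetected in these 2 identifiers.

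**Figure D1:**
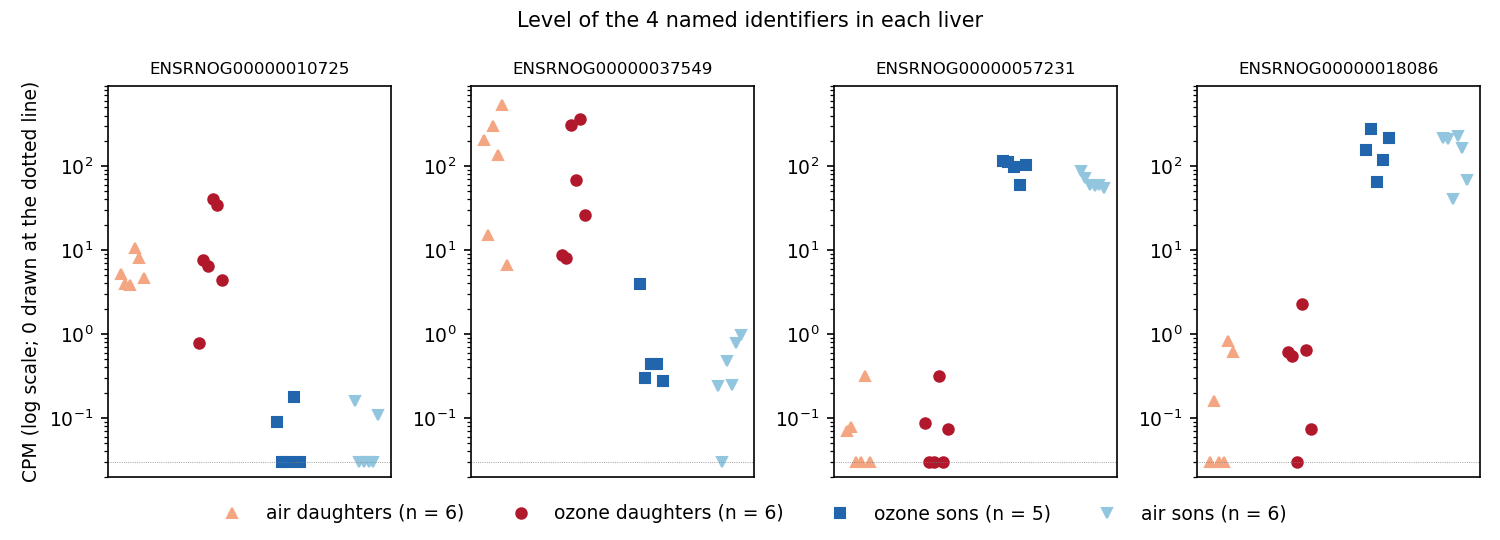
Level of the 4 named identifiers in each liver, in CPM on a log axis, with livers at 0 drawn at the dotted line. Each point is 1 liver. In each panel the ozone daughters and ozone sons do not overlap, which was a condition for choosing the identifiers. Ozone daughters span 0.781 to 40.2 CPM for ENSRNOG00000010725 and 7.99 to 359 CPM for ENSRNOG00000037549.

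The differences called in ozone offspring were mostly those of the air offspring. Of the 776 genes, 533 (68.7%) differed by sex in the same direction in air, 263 higher in daughters and 270 in sons. Of all tested genes, 23.8% were called higher in air daughters and 24.6% higher in air sons. Another 231 (29.8%) had no call in air, and 12 (1.55%) were called in the opposite direction. The sex differences of ozone and air offspring share no library, though they share the model's spread and style term. Among the 533 genes the median size was 1.23 on the log2 scale in ozone and 1.21 in air offspring. In 305 of them the ozone difference was the larger. These genes had to pass the ozone call, and that choice lifts their ozone size. Over all 6183 genes called in air, the median in the air direction was 0.73 in air and 0.07 in ozone offspring. The ozone difference was the larger in 383 of these 6183. Across all 12792 genes Pearson's r between the 2 sets of differences was 0.63 and Spearman's rho 0.23, and 56% had the same sign; genes are not independent replicates.

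**Figure D2:**
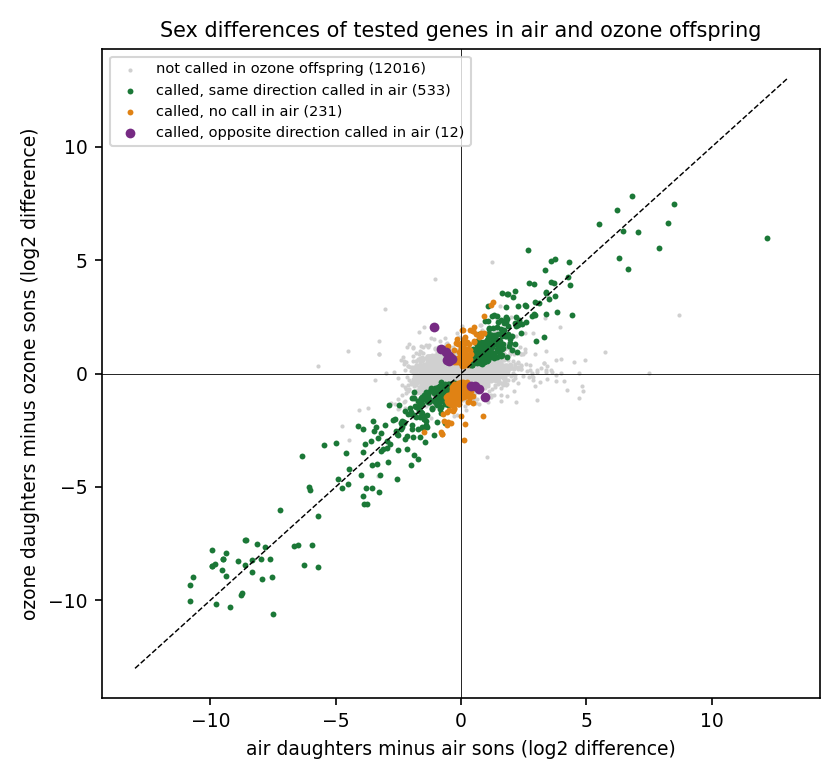
Log2 difference between daughters and sons in ozone offspring (vertical) against that in air offspring (horizontal) for the 12792 tested genes; each point is 1 gene, coloured by its call, and the dashed line marks equal differences. The 533 genes called the same way in both follow the line out to the largest differences, but they were chosen by both calls. Genes of smaller difference in air spread around 0 on the vertical axis.

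The share of air differences called again rose with their size. Of 2101 genes that differed less than 1.5-fold in air, 89 (4.24%) were called the same way in ozone offspring, where the shares of all tested genes called were 2.92% and 3.15% in the 2 directions. The share was 5.76% of 2379 genes at 1.5 to 2-fold and 11% of 1424 genes at 2 to 4-fold. It reached 43.8% of 201 genes at 4 to 16-fold and 79.5% of 78 genes over 16-fold. Larger differences are also easier to call, so the sizes matter as well. The median log2 difference in the air direction went from 0.45 in air to 0.03 in ozone offspring for genes under 1.5-fold, from 0.76 to 0.06 at 1.5 to 2-fold and from 1.24 to 0.16 at 2 to 4-fold. It went from 2.56 to 1.31 at 4 to 16-fold and from 6.65 to 6.45 over 16-fold. Genes were placed in these classes by their air values, and selection alone lowers a second measurement somewhat.

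The direction of the air difference was kept in 61.2% of the 6183 genes, 70.1% of the 1703 genes of at least 2-fold and 84.9% of the 279 genes of at least 4-fold. From group means within style 1 these shares were 71.6%, 77.4% and 80.6%, and within style 2 they were 53.3%, 59.4% and 75.3%. Style 1 has 1 daughter and style 2 has 1 son, so each of these rests on that animal. By direction, the shares of the genes of at least 4-fold were 75.2% of daughter-higher and 85.9% of son-higher genes in style 1, and 65% and 85.2% in style 2.

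The largest differences were next divided by direction. Over 16-fold, 47 of 52 son-higher genes (90.4%) and 15 of 26 daughter-higher genes (57.7%) were called. At 4 to 16-fold the counts were 49 of 90 (54.4%) and 39 of 111 (35.1%). The median log2 difference over 16-fold was −7.73 in air and −7.86 in ozone offspring for son-higher genes, and 5.62 and 4.07 for daughter-higher genes. The classes also differed in abundance, with medians of 27.2 CPM in air sons and 11.8 CPM in air daughters. Only 28.8% of the son-higher genes had whole counts, against 50% of the daughter-higher genes, so reads of near-identical copies could enter several of them. With whole counts alone, 11 of 15 son-higher (73.3%) and 9 of 13 daughter-higher genes (69.2%) over 16-fold were called, and 39 of 60 (65%) and 31 of 62 (50%) of at least 4-fold. The daughter-higher share over 16-fold was 33.3% without air daughter 2. The part of shared reads in the contrast between the directions was not tested, and genes of the sex chromosomes could not be set apart in these classes.

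**Figure D3:**
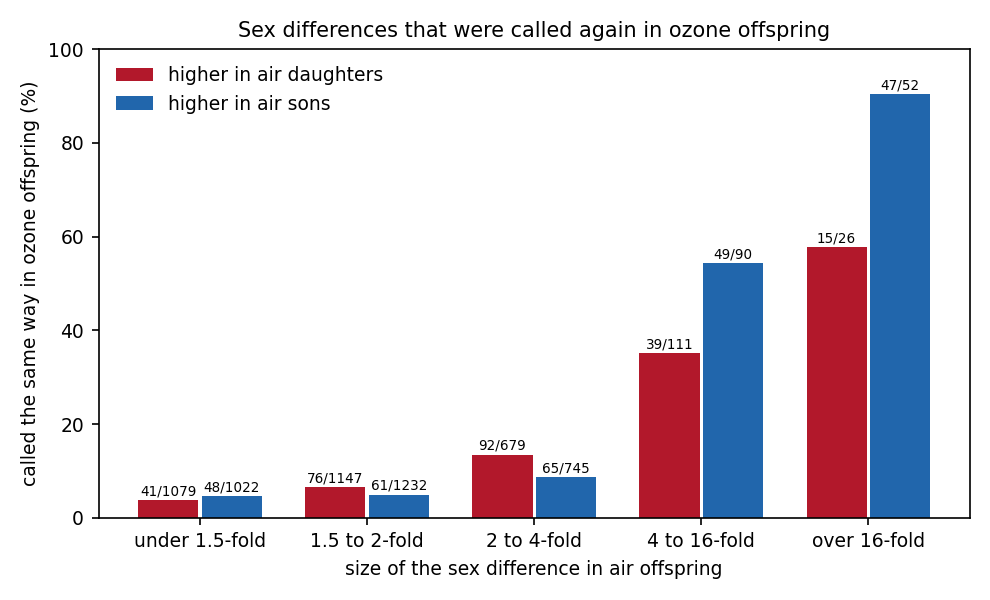
Percent of genes that differed by sex in air offspring and were called in the same direction in ozone offspring (bars from 0), by size and direction of the air difference, with the counts above each bar. The share is 13.5% or less in each class below 4-fold and highest, 90.4%, for son-higher genes over 16-fold.

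A sex index was computed for each liver and each class of genes, as the mean log2 CPM of the daughter-higher genes minus that of the son-higher genes. The classes rest on the air difference in the fit over all 23 libraries, whose spread, batch term and filter the ozone livers also enter. Over 16-fold the ozone daughters had 4.34, 4.15, 4.31, 2.35, 4.02 and 5.49 (rats 51, 52, 55, 56, 57 and 59) and the ozone sons −3.18, −4.82, −2.05, −4.02 and −4.34 (rats 76, 77, 79, 80 and 83). A gap of 4.40 separated the lowest daughter from the highest son, and the means differed by 7.79. Every ozone liver was thus placed with its own sex by these 78 genes. Any Y-linked genes among them would separate the sexes whatever the exposure, and could not be set apart. With classes taken from a fit of the air livers alone, chosen after the data were seen, the gap was 6.42 over 16-fold (53 genes) and 0.66 at 4 to 16-fold (147 genes), and the sexes overlapped in the classes below 4-fold.

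At 4 to 16-fold the ozone daughters had 1.33, 1.10, 0.92, −0.14, 0.98 and 2.22 and the ozone sons −0.98, −1.85, −0.84, −2.41 and −1.44, in the same order of rats. The gap was 0.71. The sexes remained apart, with rat 56 the daughter nearest to the sons and rat 79 the son nearest to the daughters.

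Below 4-fold the sexes overlapped. At 2 to 4-fold the ozone daughters had 1.47, 1.25, 0.81, −0.12, 0.63 and 2.02 and the ozone sons 0.86, 0.49, 0.84, −0.40 and 0.57. Of the 5 sons 4 lay above the lowest daughter, and 3 of 6 daughters lay below the highest son. The means were 1.01 ± 0.74 and 0.47 ± 0.51 (SD, n = 6 and 5), a difference of 0.54, smaller than the spread within daughters. At 1.5 to 2-fold the means were 0.94 ± 0.52 and 0.77 ± 0.36, and under 1.5-fold 0.40 ± 0.29 and 0.32 ± 0.21 (SD, n = 6 and 5). In both of these classes all 5 sons lay above the lowest daughter, rat 56. The lowest son in these 3 classes was rat 80, and the highest daughter in all 5 classes was rat 59.

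**Figure D4:**
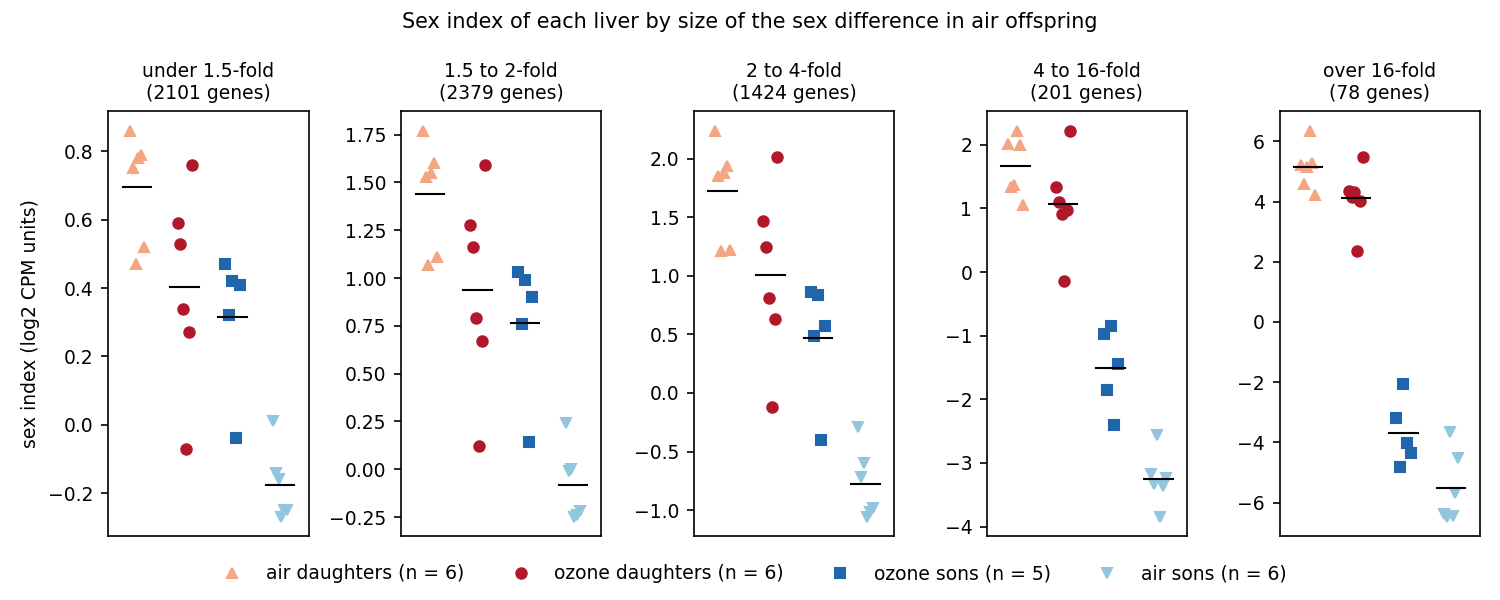
Sex index of each liver (mean log2 CPM of daughter-higher minus son-higher genes) in 5 classes of air sex difference, with a separate vertical scale in each panel; points are livers and bars are group means, and the genes were chosen by their difference between the air groups. Ozone daughters and sons are apart in the 4 to 16-fold and over 16-fold panels and overlap in the other panels.

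The same contrast appeared in the make-up of the libraries. Genes at least 4-fold higher in air daughters (137 genes) took 1.03, 1.18, 1.11, 1.16, 1.40 and 1.54% of the counts in the ozone daughters and 0.191, 0.133, 0.203, 0.116 and 0.156% in the ozone sons. Genes at least 4-fold higher in air sons (142 genes) took 0.258, 0.291, 0.311, 0.685, 0.508 and 0.302% in the daughters and 2.08, 4.57, 1.20, 2.44 and 3.39% in the sons. Neither share overlapped between the sexes. Over all genes higher in air daughters the shares were 25.2 ± 3.83% in ozone daughters and 20.5 ± 2.28% in ozone sons, and over all genes higher in air sons 18.8 ± 2.38% and 23.3 ± 2.47% (SD, n = 6 and 5). These shares overlapped: rat 56, a daughter, had 19.5% in daughter-higher and 22.5% in son-higher genes, while rat 79, a son, had 22.8% and 20.8%.

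**Figure D5:**
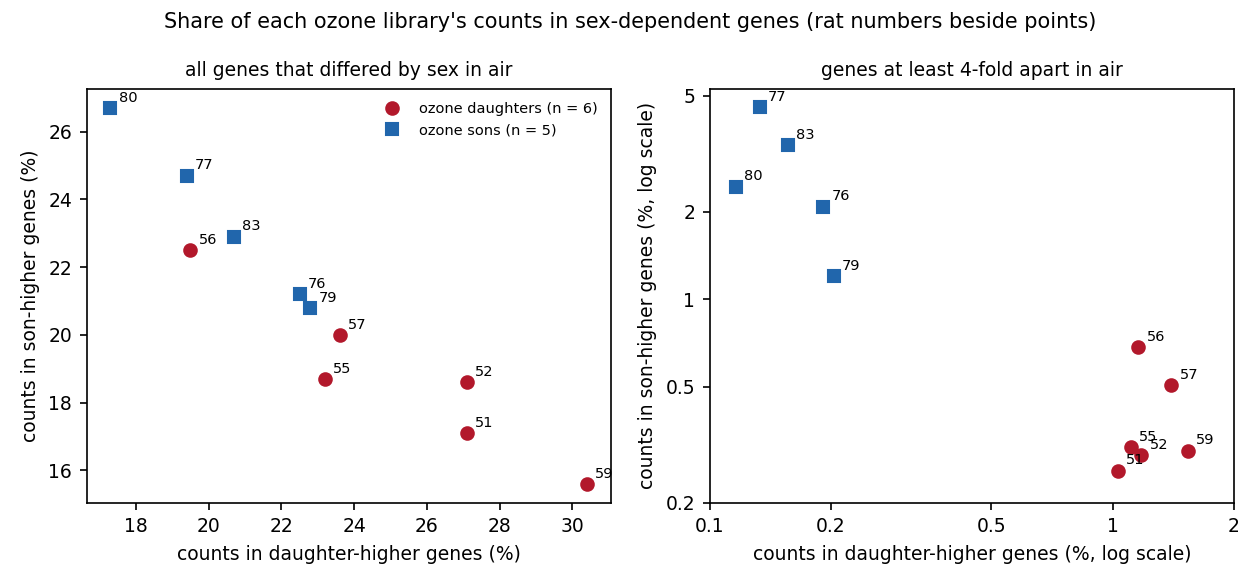
Percent of each ozone library's counts in son-higher genes against that in daughter-higher genes, for all genes that differed by sex in air (left, linear axes) and those at least 4-fold apart (right, log axes); points are livers, labelled by rat number. Daughters and sons form separate groups at right, and at left rat 56 lies among the sons.

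The animals differed widely among themselves. Each daughter was set against the mean of the ozone sons, and each son against the mean of the ozone daughters, over the 6183 genes. The air direction was found in 76.1, 72, 50, 25.4, 43.4 and 90.6% of genes in rats 51, 52, 55, 56, 57 and 59, and in 42.4, 56, 47.4, 89.6 and 50.5% in rats 76, 77, 79, 80 and 83. Rats 59 and 80 were thus the clearest of their sex, and rat 56 lay beyond the mean of the sons in most of these genes. For the genes of at least 4-fold the shares were 91, 80.6, 80.6, 65.9, 77.4 and 97.8% in the daughters and 76.3, 74.2, 80.3, 95 and 74.6% in the sons. The SD of log2 CPM was larger among ozone daughters than among ozone sons in 7853 of 12792 genes.

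Whether a sex difference itself was not the same after ozone as after air was tested by the interaction term. It passed in 1357 of 12792 genes (10.6%; edgeR, adjusted p below 0.05), of which 91 were called in ozone offspring and 1243 in air offspring. Among the 533 genes called the same way in both, 9 passed, 6 with a narrower and 3 with a wider difference in ozone offspring. Of the 231 genes with no air call 70 passed, so for the rest a sex difference that is not the same in air was not shown. All 12 genes called in opposite directions passed, with log2 sizes of 0.53 to 2.05 in ozone offspring; 8 were higher in ozone daughters and 4 in ozone sons. Of 5638 genes called in air alone, 1222 passed. By size in air, 0 of the 52 son-higher genes over 16-fold and 10 of the 26 daughter-higher ones had a narrower difference in ozone offspring. The genes called in 1 comparison, and the 12 called in opposite directions, were chosen by values that enter this term. For the 12, opposite calls in the same fit nearly fix the outcome. These counts describe the genes and do not test them.

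The interaction calls depended on single animals. By edgeR, no gene passed without air daughter 2, air son 6 or ozone son 2 (3180, 3556 and 3167 genes had an unadjusted p below 0.05), and 1 passed without air son 3 (3784). The counts were 715, 850 and 561 without air daughters 1, 4 and 5, 727 without air son 2, 558, 640 and 2509 without ozone daughters 3, 5 and 6, and 403, 508, 2729 and 468 without ozone sons 1, 3, 4 and 5. DESeq2 called 2154 genes with all animals.

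The calls between ozone daughters and sons varied less with single animals. Leaving out 1 ozone animal gave between 613 and 854 genes, except 389 without ozone son 2 (rat 77), the only ozone son of style 2. Without this son 324 genes were called the same way as in air, against 533. In all, 351 of the 776 genes (45.2%) were called in each of the 11 fits without 1 ozone animal. Of these 166 were higher in daughters and 185 in sons, 299 had the same direction in air, 2 the opposite one and 50 no air call. At least 2-fold differences made up 263 of the 351 and differences over 16-fold 65 of them.

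The libraries of each style were also fitted separately. Style 1 called 72 genes (1 daughter against 4 sons) and style 2 called 231 (5 daughters against 1 son), with the lone animal assumed to vary like the other groups. Each fit thus has 1 arm without a replicate, and its calls compare that animal with the other sex. The lists shared 47 genes, all in the same direction, 19 higher in daughters and 28 in sons. These were 65.3% of the style 1 calls and 20.3% of the style 2 calls. With the other style, 71 of 72 style 1 calls and 218 of 227 tested style 2 calls had the same direction.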

How the data were processed

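Poly(A) RNA of rat liver was sequenced. STAR 2.6.1d, Partek, DESeq2 and the build rn6 are listed, without roles, per the submitters' processing notes. The authors deposited estimated counts per Ensembl gene, unscaled. Their name gives Partek E/M quantification to an annotation model. No source used here states the annotation version, strand or further counting settings. Of the values, 19.8% were not whole (tolerance 1e-06).

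Counts were rounded and fitted with edgeR 4.0.16 in R 4.3.3 over all 23 libraries: filterByExpr (12792 of 18056 genes, 99.91% of counts), TMM factors of 0.941 to 1.054, 4 group means plus a term for the library-name style (18 residual degrees of freedom). Adjusted p below 0.05 was the threshold. Standard errors are the log2 difference divided by the root of the quasi-likelihood F statistic, and are approximate. Log2 CPM had a prior count of 2. The style term passed in 3 genes. Same-group ozone libraries differed by 21.6 to 83.4 chi-square per degree of freedom (25 pairs), so none was a copy. Alternatives were DESeq2 1.42.0, limma 3.58.1 voom, other filters, terms and thresholds, single styles, and each animal left out.

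The rule for named genes took, with no symbols, the 2 identifiers of largest difference in each direction (at least 10 CPM in the higher group, whole counts, no overlap). Gene lists by symbol could not be counted. The comparison and the gene classes were chosen with earlier results of these data known. No sequence is shown, since no identifier could be matched.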

Additional observations from a re-analysis of the deposited data

Results flagged for a closer look

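Of 36 sets of values from the ozone daughters or the ozone sons, 6 had an animal far from the rest; for normally distributed values chance gives about 1 in 20. The total count of ozone son 2 (rat 77) was 14098393, with the next son at 11272214. This is the son whose absence lowered the number of called genes most. Ozone son 1 (rat 76) had 3.92 CPM of ENSRNOG00000037549, with the next son at 0.439. Ozone daughter 4 (rat 56) stood above the other daughters in both son-higher identifiers, with 0.313 CPM of ENSRNOG00000057231 (next 0.0868) and 2.30 CPM of ENSRNOG00000018086 (next 0.636). The former is 3 counts against 1 in rat 51, too few to tell the animals apart. The latter is 22 counts against 8 in rat 57. Set against the mean of the ozone daughters, ozone son 4 (rat 80) had the air direction in 89.6% of the genes that differed by sex in air (next son 56%) and in 93.8% of those of 2 to 4-fold (next 58.4%).

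The sex difference differed between ozone and air offspring in 1357 genes by the interaction term (edgeR, adjusted p below 0.05), a count that ranged from 0 to 2729 with 1 animal left out.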

How the results depend on the processing

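The 776 genes called between ozone daughters and sons became 415 with a 2-fold limit, 428 at an adjusted p below 0.01 and 465 among genes with whole counts. They became 340 with the ozone groups alone, and 72 and 231 within styles 1 and 2 (fewer animals in each case). DESeq2, limma voom, no filter and no style term gave 961, 756, 760 and 874. With 1 of the 23 animals left out the count was 389 to 854. The interaction count of 1357 was 2154 with DESeq2, 886 with no filter and 3108 with no style term, the cause of which was not tested, and 0 to 2729 with 1 animal left out. With no filter, 41.5% of its calls were positive, against 51.4%. The direction of air differences was kept in 50.4% to 71.2% of genes with 1 animal left out, and in 84.9% for genes of at least 4-fold. Genes called the same way as in air numbered 324 to 570. Genes without overlap numbered 592 to 874 with 1 ozone animal left out, against 540, and fewer animals make that condition easier to meet. Of genes at least 4-fold apart in air, 53.8% were called again, 33.5% with no filter (which adds rare genes) and 41.2% to 57.1% with 1 animal left out. Over 16-fold the daughter-higher share was 45% with limma voom, 29.8% with no filter, 76.5% with classes from the air livers alone and 33.3% to 60.9% with 1 animal left out. The son-higher share was 73% with no filter and 81.5% to 95.9% with 1 animal left out. The 4 named identifiers kept their sign in 72 of 72 alternatives and their call in 66. No paired analysis was possible because replicate numbers were given in order of accession and pair no animals. Chosen after seeing the data were the alternatives for genes called again and for genes without overlap, the air animals left out except for the interaction, the classes from the air livers alone, and, for the direction kept, the other tools, no filter and no style term. Depth limits rare genes, with a median standard error of 0.45 under 1 CPM.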
